A study of Brassica napus with 18 samples.

Results

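R4168 is an oilseed rape (Brassica napus) accession that carries haplotype 2 of BnaC3.LFY, and its shoot apex transcriptome was set against those of the other haplotype 2 accessions, R4210 and R4817. These are called its sisters here for the shared haplotype only, since the labels give no pedigree. The comparison takes the 9 haplotype 2 libraries, 3 for each accession, out of the 18 libraries of the series. Of 107233 gene models in the count table, 53356 passed a filter on low counts and were tested. The series was designed to set haplotype 1 against haplotype 2, with 3 accessions each. The haplotype 1 accessions, R5044, R5159 and R5161, enter below only as further levels beside those of R4168. All plants were grown in the field and no other treatment is given in the labels. RNA was enriched by poly(A) selection. All 3 accessions share the haplotype, so a difference between R4168 and its sisters describes these accessions and not a haplotype.

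Oilseed rape is an allotetraploid. Its A subgenome derives from Brassica rapa and its C subgenome from Brassica oleracea, and most A genes have a homoeologous copy on a collinear stretch of a C chromosome. In this species homoeologous stretches are known to exchange or replace each other, which leaves an accession with extra copies on one subgenome and none on the other, and the ends of chromosomes are the usual place. Among the collinear stretches known in this species are the starts of A09 and C09, the starts of A03 and C03, the ends of A01 and C01, and the end of A09 with the end of C08. Counts of transcripts alone do not tell a gene that is missing from the genome from a gene that is present and not transcribed, and DNA was not analysed here. In bulk tissue, fewer cells of a type and less RNA per cell cannot be told apart either. The gene identifiers matched no gene names, so genes are given by chromosome and running gene number, functions are not given, and the tissue label could not be checked against marker genes.

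The 9 libraries held between 21960992 and 32241484 counts each. R4168 libraries totalled 29359718 ± 4028795 counts (SD, n = 3) and sister libraries 24873315 ± 3227586 counts (SD, n = 6), a difference with a two-sided exact permutation p of 0.119. The first principal component of log2 CPM (counts per 1000000 counts of a library) held 41.9% of the variance. On it R4168 lay between -200.79 and -186.1, R4210 between 138.83 and 167.28, and R4817 between 9.68 and 75.98. Libraries of R4168 correlated with each other at 0.9604 to 0.9857 across genes and those of R4210 at 0.9582 to 0.9809. Libraries 1 and 2 of R4817 stood apart from each other, at 0.8771, while library 3 correlated with them at 0.9554 and 0.9503. On the third component libraries 1, 2 and 3 of R4817 lay at 147.1, -146.7 and 18.86. In numbers 401 to 500 of A09, for example, they summed to 685, 1403 and 1045 CPM, with library 3 close to the mean of 1044 CPM. All 3 were fitted as separate samples. Whether library 3 is independent of libraries 1 and 2 was not tested. Some chromosome stretches also differed between libraries of the same sister. In windows of 100 gene numbers, a library lay at least 0.5 from the middle library of its accession, in the median log2 difference of its genes, in 16 of 948 windows of R4817 (1.69%) and in 8 of 954 windows of R4210 (0.839%), against 2 of 949 windows of R4168 (0.211%). In haplotype 1 the counts were 47 of 926 windows in R5044 (5.08%), 4 of 930 in R5159 and 4 of 938 in R5161. The windows of the sisters lay at the ends of A01 and C01 and at the starts of A09 and C09, among other places. Values of single libraries are given for the main stretches concerned. Whether the libraries within an accession stem from different plants is not in the labels. The p-values of edgeR fits to single libraries thus measure only the spread between libraries of an accession, which may be technical. The permutation tests pool the 6 sister libraries, so the difference between R4210 and R4817 also enters their p-values. They take libraries and not accessions as units.

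R4168 differed from the mean of its sisters in 13112 genes by edgeR's quasi-likelihood test with adjusted p under 0.05 (24.6% of those tested). Of these, 6951 were higher in R4168 (13%) and 6161 were lower (11.5%). This balance turned against R4817 alone, with 4701 higher and 6156 lower, and with DESeq2 against the sister mean, with 7761 higher and 7940 lower. The mean of both sisters can differ from R4168 because 1 sister alone does, so each sister was also tested by itself. R4168 differed from R4210 in 11805 genes (22.1%) and from R4817 in 10857 genes (20.3%), while R4210 and R4817 differed from each other in 8897 genes (16.7%). Of the 13112 genes, 4297 passed against R4210 only, 3217 against R4817 only and 504 against neither sister alone. The remaining 5094 genes passed against both sisters in the same direction, which is 9.55% of those tested.

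These 5094 genes, in which R4168 lay apart from both sisters, were mostly low in R4168. R4168 was higher than both sisters in 1928 genes (3.61%) and lower than both in 3166 genes (5.93%). By the same rule R4210 lay apart in 3946 genes (7.4%) and R4817 in 3864 genes (7.24%). These 3 counts come from the same libraries and were not tested against each other. The fold changes of the low genes were larger in size. The median difference was 1.40 on the log2 scale among the genes higher in R4168 and 2.41 among the genes lower in R4168, against 0.38 over all tested genes, signs ignored. Of the genes lower than both sisters, 1809 differed by at least 2 on the log2 scale, against 636 of the genes higher than both. Fitted values of genes with 0 counts in a whole group depend on the prior count. Among the low genes, 540 had 0 counts in all R4168 libraries. With those set to a floor of 3 counts over the group, the pooled counts gave median log2 ratios of -2.48 for the low genes and 1.35 for the high genes.

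The genes lower than both sisters held 3.53% ± 0.142 of the counts in R4168, 9.77% ± 0.177 in R4210 and 9.34% ± 0.892 in R4817 (SD, n = 3 each). The genes higher than both held 9.03% ± 0.124 in R4168, 4.29% ± 0.136 in R4210 and 4.39% ± 0.361 in R4817. Both sets were chosen on these values, which are given as a description. Without libraries 1 and 2 of R4817 the counts were 11951 genes against the sister mean and 3924 genes apart from both sisters. Without library 3 of R4168, 3376 genes lay apart from both. The 3 libraries of an accession were also summed, with the spread between R4210 and R4817 as the error. That leaves 1 sum for R4168 against 2, too few to decide on single genes, so no calls are read from it. Whether R4168 differs from its sisters by more than accessions differ among themselves was thus not settled.

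The number of detected genes depended on the threshold. At least 10 counts were reached by 49928 ± 1066 genes in R4168, by 49976 ± 1002 in R4210 and by 49824 ± 741 in R4817 (SD, n = 3 each, exact permutation p of 0.952 for 3 against 6 libraries). At a threshold that follows depth, 0.5 CPM, the count was 47066, 46948 and 47381 genes in the R4168 libraries. It was 47393, 47618 and 48174 in the R4210 libraries and 48976, 47715 and 49448 in the R4817 libraries. All R4168 libraries were below all sister libraries, with a two-sided exact permutation p of 0.0238, the smallest that 3 against 6 libraries can give. The A subgenome took 45.8% ± 0.128 of chromosome counts in R4168, 47.3% ± 0.278 in R4210 and 45.7% ± 0.238 in R4817. The difference from the sister libraries had an exact permutation p of 0.262. The R4168 libraries lay below all R4210 libraries and within the range of the R4817 libraries.

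Placing the genes along the chromosomes divided the differences into regional and scattered ones. Counts were summed in fixed windows of 100 gene numbers and tested with edgeR's quasi-likelihood test. Of 980 windows, 379 differed from the sister mean at an adjusted p under 0.05 (38.7%), 190 of them higher in R4168 (19.4%) and 189 lower (19.3%). Against both sisters in the same direction, 89 windows were higher (9.08%) and 95 lower (9.69%). Most of these differences were small. In 859 of 965 windows with at least 15 tested genes (89%), the median log2 fold change of the genes lay within 0.25 of 0, and 61 windows passed the test with a fold of at least 1.5. A few abundant genes can move the sum of a window, so a called window need not be a regional difference. In A03 2101 to 2200 the sum was -0.75 from the sister mean on the log2 scale and the median gene -0.10. In A03 2701 to 2800 these values were -0.63 and 0.09, and both windows were called. How many called windows were of this kind was not counted.

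**Figure D1:**
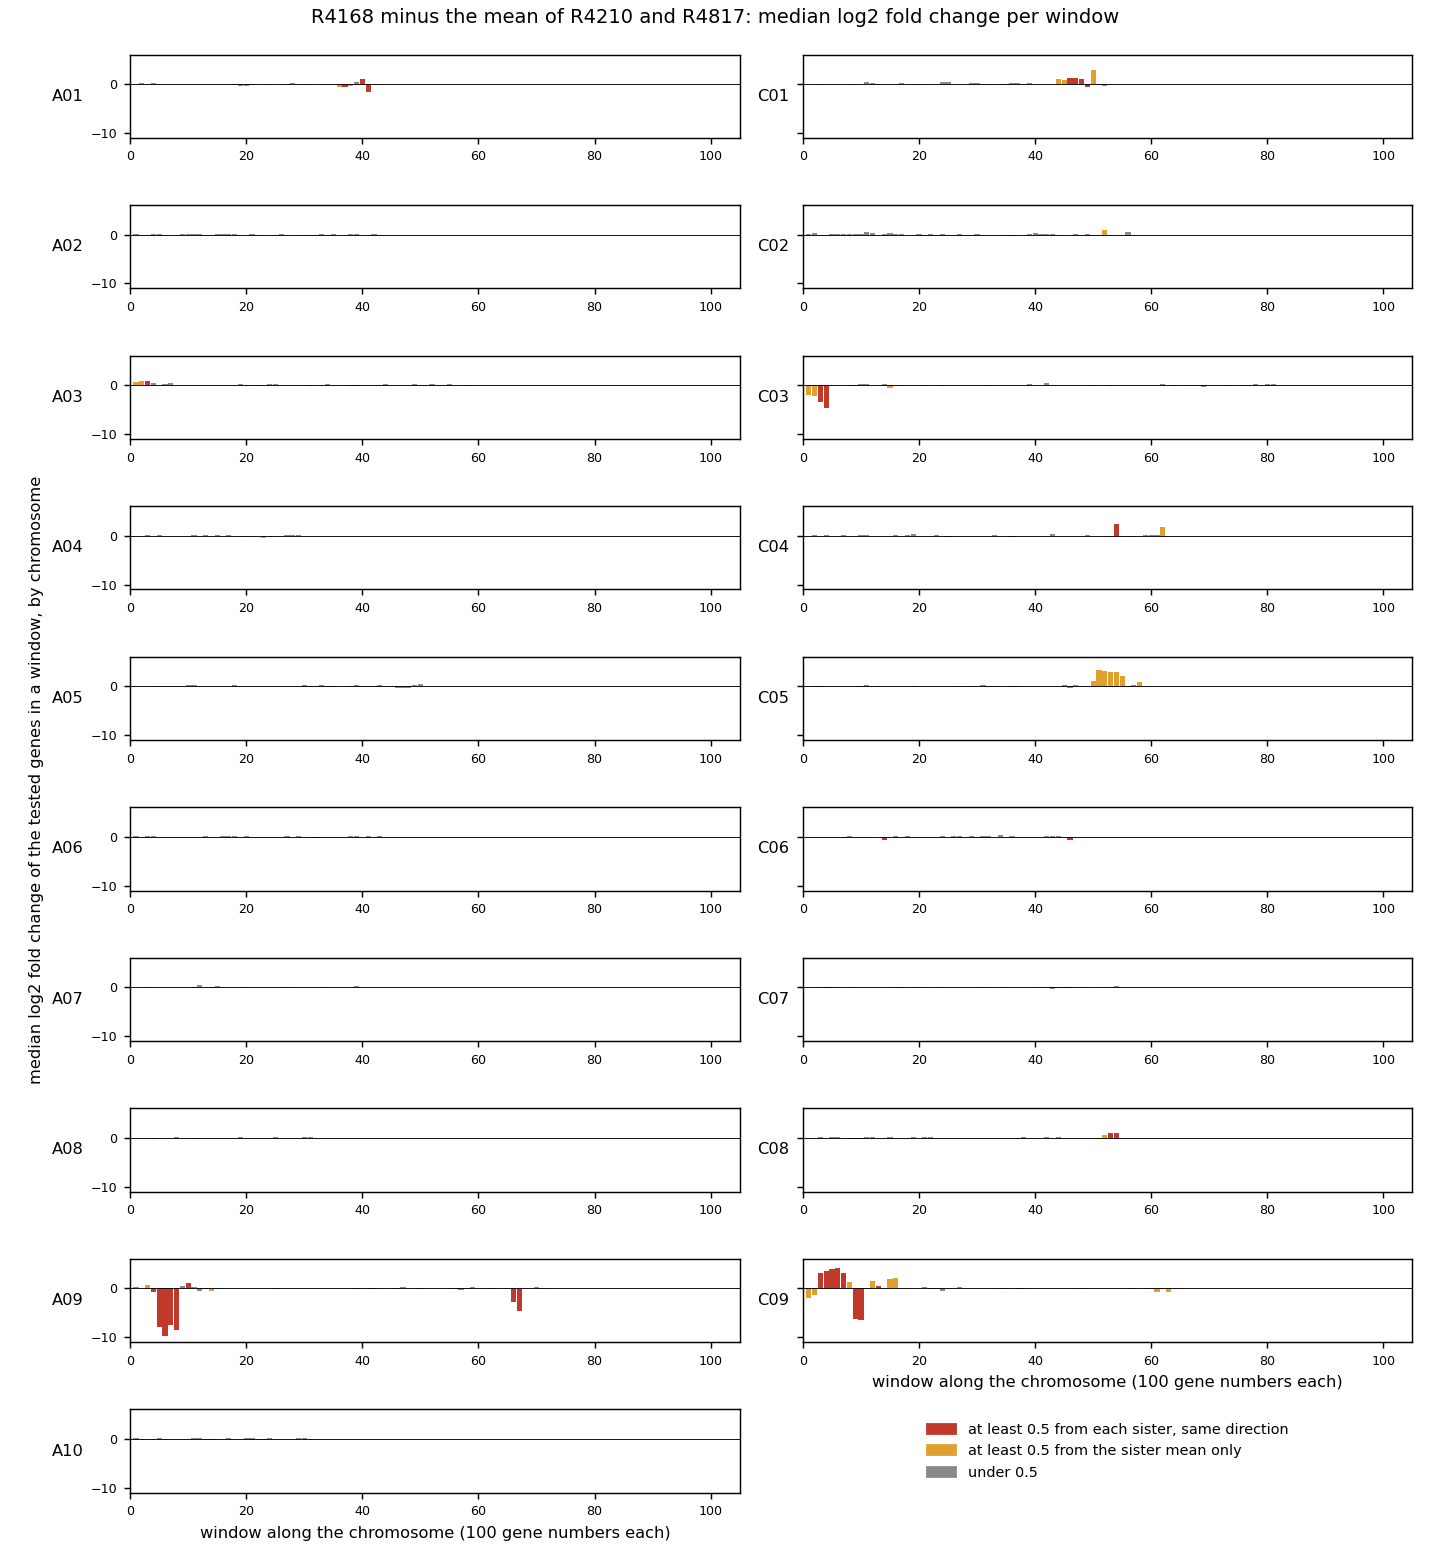
Median log2 fold change of the tested genes in each window of 100 gene numbers, R4168 minus the mean of R4210 and R4817, with 1 panel per chromosome, the window number on the x axis and the log2 fold change on the y axis. Red bars are the 31 windows at least 0.5 from each sister in the same direction, orange bars are at least 0.5 from the sister mean only, and the tallest bars stand at the start of A09 and C09.

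The scan of medians along the chromosomes showed that large regional differences were few and that many of them belonged to a sister. A window counts as shifted where the median log2 fold change of its genes lay at least 0.5 from 0. Against the sister mean, 34 windows were shifted higher and 27 lower. Of these 61 windows, 20 were shifted against R4210 only, 10 against R4817 only, and 1 in opposite directions against each. Gene numbers 4901 to 5500 of C05, for example, were high on the mean because R4210 was low there. In numbers 5001 to 5100 the median was 6.77 above R4210 and -0.0027 from R4817. Against both sisters in the same direction, 15 windows were higher and 16 lower in R4168, and neighbouring windows of a direction formed 17 segments, 8 higher and 9 lower. Of the segments, 10 were a single window and 7 were longer. In 14 segments every window was among those called above by edgeR's test of summed counts against the sister mean, in the same direction. In 3 segments no window was. The segments were chosen from the same counts, so these window calls are no separate support for them. Segments were chosen by the median fold changes of their windows, so the values below describe them and no test is given for a segment.

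The segment with the lowest median lay at the start of A09. Over gene numbers 301 to 800 the median gene was -7.76 from the sister mean on the log2 scale, -8.08 from R4210 and -7.46 from R4817. Of 315 tested genes there, 261 were lower in R4168 and 18 higher by edgeR's test, where 11.5% and 13% of all tested genes were, and 244 were lower than both sisters. No count was seen in R4168 for 139 of these genes. With those at the floor of 3 counts, the median pooled log2 ratio was -6.06. The drop was steepest inside the segment. In numbers 501 to 600 the summed level was 19.9, 15.9 and 15.7 CPM in the R4168 libraries, against 1760, 1467 and 1836 CPM in the R4210 libraries and 963, 937 and 934 CPM in the R4817 libraries. The R4168 values there stood far below every sister library, and 69 of 70 tested genes were lower than both sisters. In the neighbouring numbers 301 to 400 the picture was mixed, with 29 genes lower and 17 higher of 63 tested, and 901 to 1000, beyond the segment, were higher than both sisters by a median of 1.05.

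Of 228 genes in this A09 segment that reached 1 CPM in every sister library, 126 had at most 3 counts over the 3 R4168 libraries. They lay between numbers 360 and 758. Over numbers 401 to 800, 39, 36 and 35 gene models reached 1 CPM in the R4168 libraries, against 227, 226 and 226 in the R4210 libraries and 209, 207 and 216 in the R4817 libraries. The genes that remained included number 612, which had 676 CPM in R4168, 880 CPM in R4210 and 316 CPM in R4817. This gene alone kept the sum of its window high in R4168, with 328, 864 and 908 CPM in the R4168 libraries, although 55 of the 59 tested genes in that window were lower. With number 612 the span 401 to 800 of R4168 summed to 0.204 of the sister mean, and without it to 0.0908.

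The lower pair of named genes lay in this segment. BnaA09T0041800ZS, number 418, had 0 counts in all R4168 libraries. It had 220.0, 190.3 and 210.2 CPM in the R4210 libraries and 106.6, 224.5 and 158.6 CPM in the R4817 libraries. It was at least 5494-fold lower in R4168 than in the pooled sister libraries, taking the floor of 3 counts over the R4168 libraries (edgeR's quasi-likelihood test, adjusted p = 1.54e-06). BnaA09T0049400ZS, number 494, also had 0 counts in R4168. Its levels were 154.7, 133.1 and 174.9 CPM in the R4210 libraries and 60.9, 172.2 and 118.6 CPM in the R4817 libraries. The bound was at least 4034-fold lower in R4168 (edgeR's test, adjusted p = 8.05e-06). Neither gene was low throughout haplotype 1. BnaA09T0049400ZS averaged 157 CPM in R5044, 133 CPM in R5159 and 157 CPM in R5161, and BnaA09T0041800ZS averaged 36.2, 64.6 and 155 CPM, with 0 in library 2 of R5044.

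Genes at the start of C09 ran the other way over a similar stretch. Over numbers 201 to 700 of C09 the median gene was 3.48 above the sister mean, 5.91 above R4210 and 1.12 above R4817. Of 303 tested genes, 269 were higher in R4168 and 4 lower by edgeR's test, and 119 were higher than both sisters. The summed level was 12951, 17382 and 16999 CPM in the R4168 libraries, against 589, 661 and 629 CPM in the R4210 libraries and 5747, 7016 and 6436 CPM in the R4817 libraries. R4168 was highest and R4210 lowest with no overlap, and R4817 lay between them. At 1 CPM or more there were 276, 272 and 275 genes in the R4168 libraries, against 89, 91 and 96 in the R4210 libraries and 265, 191 and 248 in the R4817 libraries. A single gene model, number 497, carried 7301 CPM in R4168, 78.4 CPM in R4210 and 2417 CPM in R4817. Without it the span was 3.74 times the sister mean, against 4.49 times with it. The median pooled log2 ratio over the segment was 2.06. The pooled ratio adds up the counts of the sisters, whereas the fitted value averages their log2 levels.

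R4817 was itself uneven here. In numbers 301 to 400 of C09 its libraries had 987, 297 and 649 CPM, against 1874, 1816 and 1764 CPM in the R4168 libraries and 60.9, 67.8 and 68.7 CPM in the R4210 libraries. Every R4168 library still lay above every R4817 library in this window.

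**Figure D2:**
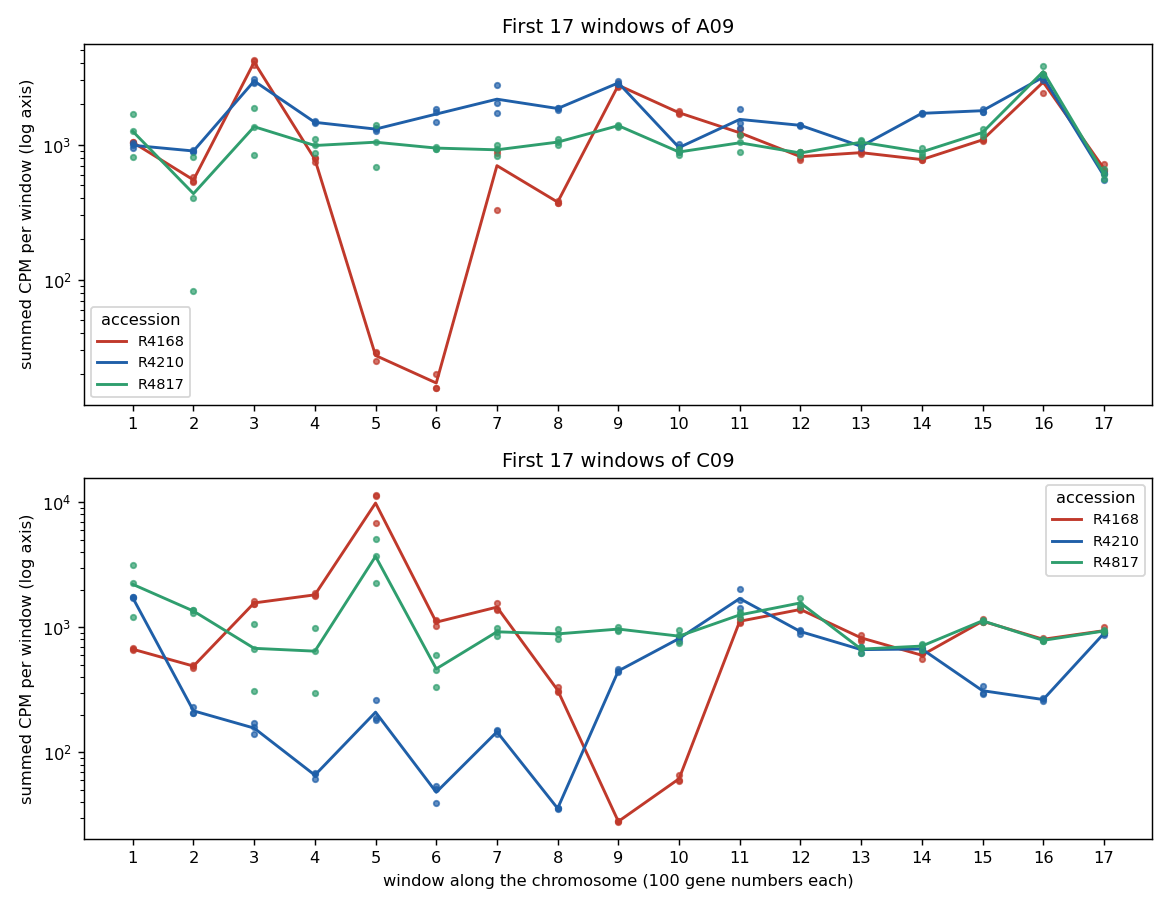
Summed CPM per window of 100 gene numbers over the first 17 windows of A09 (top) and C09 (bottom) on a log axis, with lines for accession means and 1 point per library. Among other windows, the R4168 mean lies below both sister means in windows 4 to 8 of A09 and 1, 9 and 10 of C09, and above both in windows 3 to 7 of C09.

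The start of C09 also held a stretch where R4168 was low. Over numbers 801 to 1000 the median gene was -6.31 from the sister mean, -5.45 from R4210 and -7.87 from R4817. Of 114 tested genes, 91 were lower in R4168 and 1 higher, and 78 were lower than both sisters. The summed level was 89.6 ± 3.4 CPM in R4168, against 1262 ± 31.5 CPM in R4210 and 1818 ± 142 CPM in R4817 (SD, n = 3 each). Of 60 genes at 1 CPM or more in every sister library, 28 had at most 3 counts over the R4168 libraries. With the 56 genes at 0 counts in R4168 set to the floor, the median pooled log2 ratio was -5.76. The profile of the first 17 windows of A09 and C09 shows where these stretches began and ended. R4168 averaged 315 CPM in window 8 of C09 and 28.1 CPM in window 9, while R4210 ran in the opposite sense with 35.7 and 448 CPM in the same windows.

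At the other end of A09, numbers 6501 to 6700 were low in R4168 alone among the haplotype 2 accessions. The median gene was -4.27 from the sister mean, -4.01 from R4210 and -4.61 from R4817. Of 126 tested genes, 92 were lower and 3 higher, and 88 were lower than both sisters. The summed level was 1071, 1262 and 1199 CPM in the R4168 libraries, against 3710, 3827 and 3764 CPM in the R4210 libraries and 3697, 3770 and 3806 CPM in the R4817 libraries. The sister libraries lay close together and R4168 lay at 0.313 of their mean. Among genes at 1 CPM or more in every sister library, 30 had at most 3 counts in R4168, and with the 31 genes at 0 set to the floor the median pooled log2 ratio was -4.16. Without library 1 of R4168 the fitted median was -5.01. The end of C08 was high in R4168. Over numbers 5201 to 5400 the median gene was 0.90 above the sister mean, with 55 of 89 tested genes higher and 3 lower. Over 5101 to 5400 the sum was 5360, 6330 and 6093 CPM in the R4168 libraries, against 3669, 3957 and 3566 CPM in the R4210 libraries and 3451, 3624 and 3504 CPM in the R4817 libraries, a ratio of 1.63.

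The start of C03 was the next low stretch, and it differed between the sisters. Over numbers 201 to 400 the median gene was -3.80 from the sister mean, -3.85 from R4210 and -3.73 from R4817. Of 115 tested genes, 102 were lower in R4168, 2 were higher and 94 were lower than both sisters. With the 29 genes at 0 counts set to the floor, the median pooled log2 ratio was -3.84. Over numbers 1 to 200 R4168 and R4210 were low together. There the median gene of R4168 lay 0.00 from R4210 in both windows, and -4.59 and -4.03 from R4817. Over the whole span 1 to 400, 88, 82 and 80 genes reached 1 CPM in the R4168 libraries, against 133, 136 and 143 in the R4210 libraries and 203, 199 and 202 in the R4817 libraries. The sum was 761, 710 and 709 CPM in R4168, against 2371, 2087 and 2208 CPM in R4210 and 4205, 3868 and 4049 CPM in R4817. The 3 accessions did not overlap in either measure. The start of A03 ran in the opposite order. Over numbers 1 to 400 of A03 the sum was 6602, 6561 and 6475 CPM in R4168, against 5138, 4916 and 5082 CPM in R4210 and 3754, 4800 and 4294 CPM in R4817. In numbers 201 to 300 the median gene was 0.90 above the sister mean, with 32 of 52 tested genes higher and 0 lower.

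**Figure D3:**
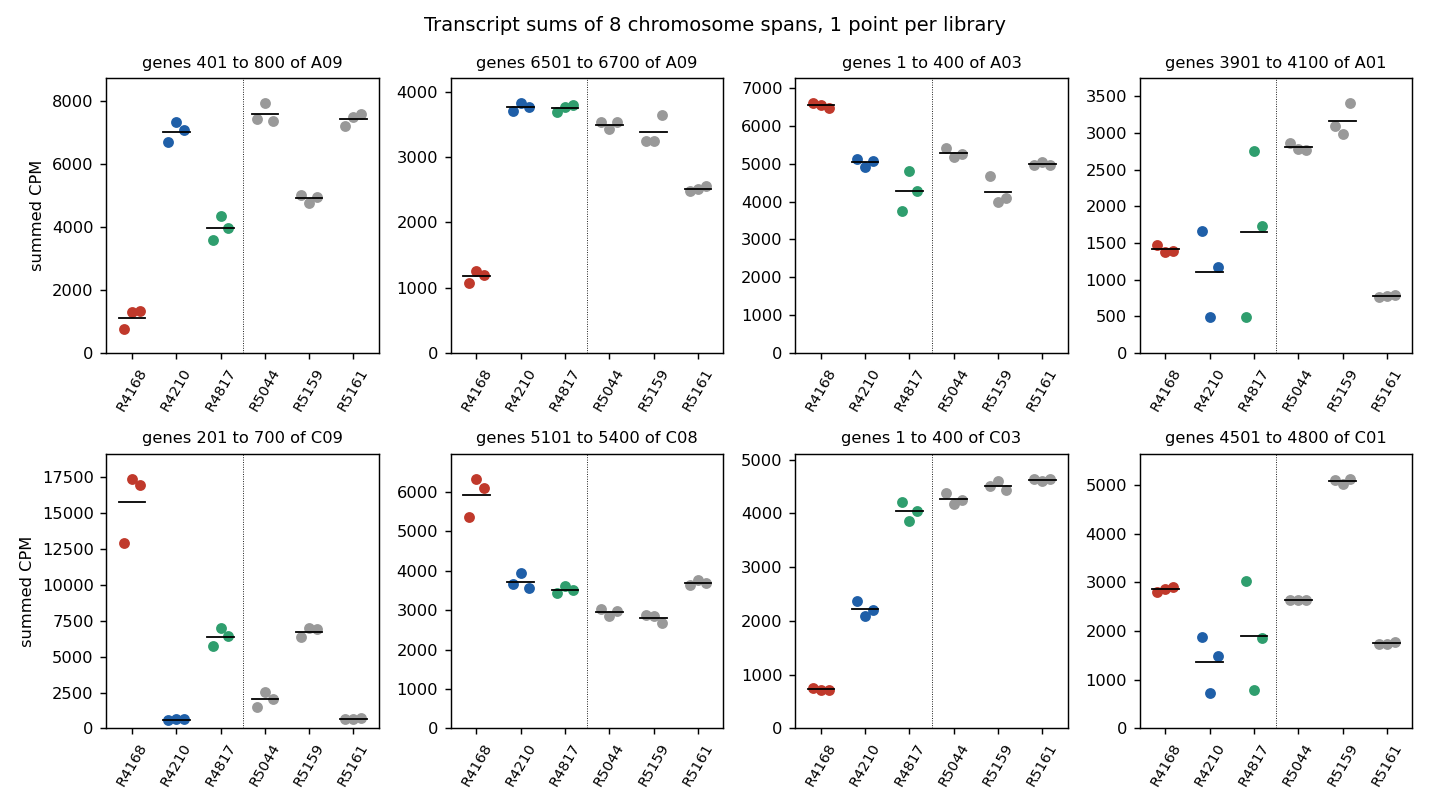
Summed CPM (y axis) of 8 chromosome spans in each library, with 1 point per library, a line for the accession mean and the accession on the x axis, haplotype 2 left of the dotted line and haplotype 1 right of it. Each column pairs spans from chromosome ends known to be collinear, with gene numbers chosen after the values were seen. Whether their genes are homoeologous was not checked. R4168 lies below every sister library in A09 401 to 800, A09 6501 to 6700 and C03 1 to 400. It lies above every sister library in C09 201 to 700, C08 5101 to 5400 and A03 1 to 400.

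Spans on chromosome ends known to be collinear were summed in pairs, as a description. The pairs and their gene numbers were chosen after the values were seen. Whether the genes of paired spans are homoeologous was not checked, and whether stretches were exchanged between subgenomes was not tested. Counts are not scaled by gene length, so only the same pair is compared between accessions. The starts of A03 and C03 together gave 7273 ± 89.9 CPM in R4168, against 7267 ± 254 CPM in R4210 and 8323 ± 355 CPM in R4817 (SD, n = 3 each), a ratio of 0.933 to the sister mean. The ends of A09 and C08 together gave 7105 ± 603 CPM in R4168, against 7498 ± 249 CPM in R4210 and 7284 ± 125 CPM in R4817, a ratio of 0.961. In both pairs R4168 and at least 1 sister differed by less than the spread between libraries. Without the most abundant gene of each span, the ends of A09 and C08 gave 5712 CPM in R4168, against 6624 CPM in R4210 and 6548 CPM in R4817, a ratio of 0.867, and the starts of A03 and C03 gave a ratio of 0.905. The starts of A09 and C09 together gave 16898 ± 2766 CPM in R4168, against 7651 ± 362 CPM in R4210 and 10351 ± 1015 CPM in R4817, a ratio of 1.88. Without the most abundant gene of each span the sums were 8920 CPM in R4168, 6693 CPM in R4210 and 7618 CPM in R4817, a ratio of 1.25. The spans 3901 to 4100 of A01 and 4501 to 4800 of C01 together gave 4270 ± 28.0 CPM in R4168, against 2473 ± 1179 CPM in R4210 and 3549 ± 44.5 CPM in R4817, a ratio of 1.42. This pair was thus highest in R4168 among the haplotype 2 accessions, and the ratio was 1.44 without the most abundant genes. In haplotype 1 it gave 5445 ± 63.6 CPM in R5044, 8244 ± 261 CPM in R5159 and 2529 ± 38.1 CPM in R5161. The A01 span alone was 1.02 times the sister mean in R4168, so this pair held no low span. How reads that align to both subgenomes were counted is not given in the sources used here, so A and C copies may share counts, and the effect of this on the sums was not tested.

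**Figure D4:**
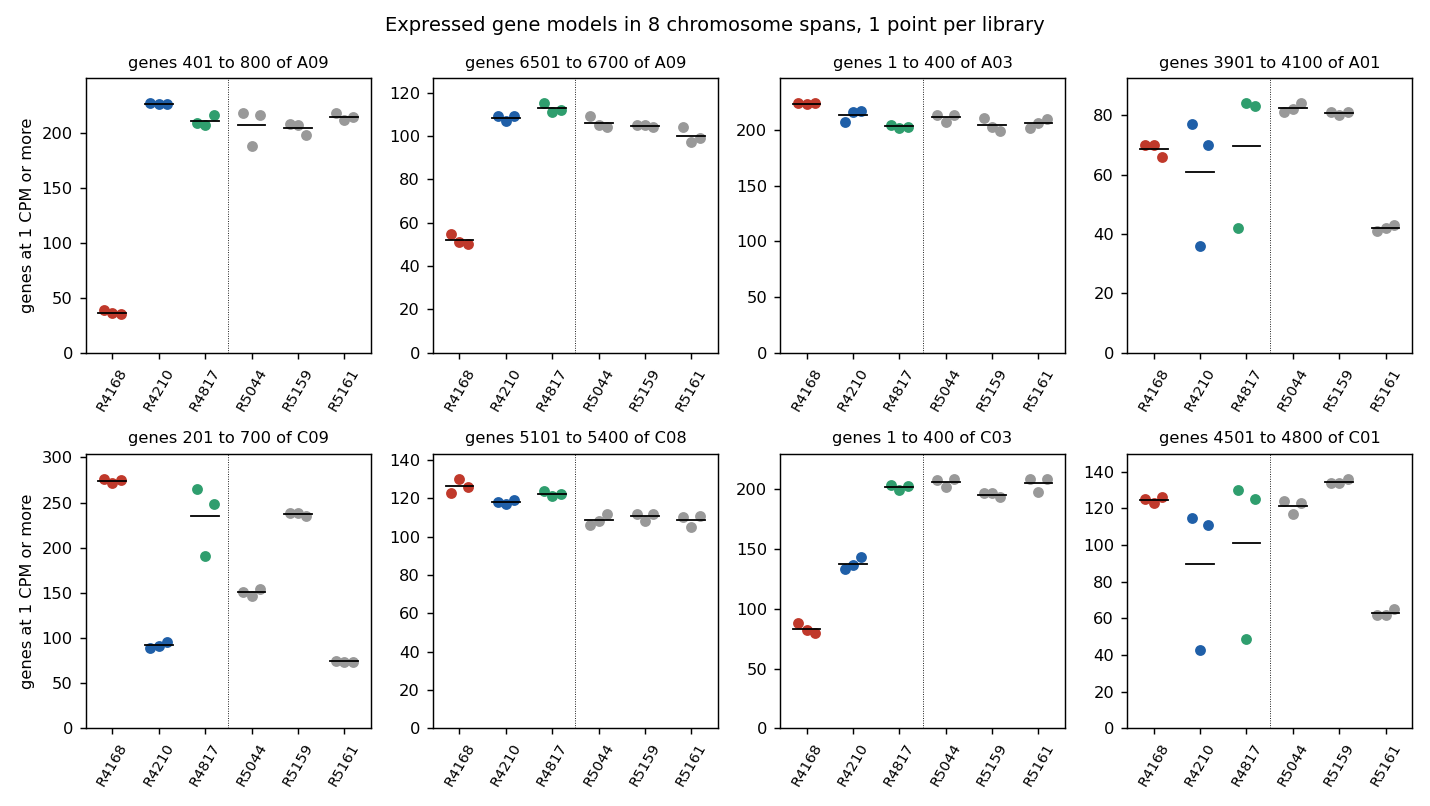
Number of gene models at 1 CPM or more (y axis) in the same 8 spans, with 1 point per library, a line for the accession mean and the accession on the x axis. R4168 has 35 to 39 such genes in A09 401 to 800, against at least 207 in every sister library, while in the A01 and C01 spans library 2 of R4210 and 1 library of R4817 lie far below the other libraries of their accession.

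The ends of A01 and C01 were shifted in the scan, where sister libraries differed widely among themselves. Over A01 numbers 3901 to 4000 the median gene was 0.99 above the sister mean and over 4001 to 4100 -1.54 from it. Over C01 numbers 4501 to 4800 the median was 1.18. By edgeR's test this C01 span had 17 genes called higher and 7 called lower out of 150. Its 11.3% of higher calls lay under the 13% of all tested genes. R4168 was higher than both sisters in 3 genes there and lower than both in 5. A01 3901 to 4000 had 4 higher calls and 0 lower out of 46, and A01 4001 to 4100 had 2 and 11 out of 45. In these 3 segments no window passed the window test against the sister mean. The R4168 libraries were close to each other, with 2799, 2866 and 2906 CPM over this C01 span. The sister libraries were not, with 1885, 731 and 1481 CPM in R4210 and 3019, 795 and 1867 CPM in R4817. R4168 lay within the range of the R4817 libraries there. Over A01 3901 to 4000 the sum was 881, 823 and 839 CPM in the R4168 libraries, against 536, 199 and 428 CPM in R4210 and 189.5, 783 and 515 CPM in R4817, so R4168 lay above every sister library, by little over library 2 of R4817. Over A01 4001 to 4100 it was 587, 555 and 554 CPM in R4168, against 1131, 283 and 746 CPM in R4210 and 294, 1975 and 1209 CPM in R4817, so the ranges overlapped. Next to these, A01 3601 to 3700 had a median of -0.63, with 931, 1000.4 and 1037 CPM in the R4168 libraries, against 1630, 2112 and 1967 CPM in R4210 and 862, 1612 and 1273 CPM in R4817. Library 1 of R4817 was below all R4168 libraries there. In C01 4801 to 4900 the median was -0.62, and R4168, at 383, 360.2 and 361 CPM, lay below every sister library, at 605, 708 and 650.3 CPM in R4210 and 804, 601 and 692 CPM in R4817.

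The remaining segments were single windows. Numbers 5301 to 5400 of C04 were high in R4168, by a median of 2.41 over the sister mean, with 39 of 44 tested genes higher, 0 lower and 24 higher than both sisters. The sum was 1584 ± 50.4 CPM in R4168, against 529 ± 47.5 CPM in R4210 and 349.6 ± 38.1 CPM in R4817. Numbers 1201 to 1300 of C09 had a median of 0.48, and of 0.78 without library 1 of R4817. The sum there was 875, 784 and 813 CPM in the R4168 libraries, against 692, 618 and 679.9 CPM in R4210 and 701, 624 and 684 CPM in R4817. Numbers 1301 to 1400 and 4501 to 4600 of C06 were lower, by medians of -0.63 and -0.65, with 18 of 42 and 31 of 71 tested genes lower.

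Levels in haplotype 1 separated the segments into those where R4168 stood alone among all 6 accessions and those it shared. These levels were compared as log2(CPM + 0.1), which shrinks changes of weakly expressed genes. The median gene of A09 301 to 800 lay -4.66 from the sister mean in R4168, and -0.25, -0.37 and 0.41 from it in R5044, R5159 and R5161. R5044 was uneven there, with 273, 197 and 265 genes at 1 CPM or more in its libraries. In A09 6501 to 6700 the value was -2.91 in R4168, and -0.23, -0.28 and -0.04 in the same haplotype 1 accessions. In C03 201 to 400 it was -2.95 in R4168, and 0.20, 0.13 and 0.24 in haplotype 1. In C08 5201 to 5400 it was 0.88 in R4168, and 0.01, -0.06 and 0.02 in haplotype 1. In 6 of the 17 segments no haplotype 1 accession lay 0.5 or more from the sister mean in the direction of R4168. The others were shared. C04 5301 to 5400 was also high in R5044 and R5159, by 2.11 and 2.04 beside 2.11 in R4168, and not in R5161, at -0.91. C09 801 to 1000 was also low in R5044 and R5161, at -2.92 and -4.22 beside -3.73 in R4168, and not in R5159, at 0.45. C06 1301 to 1400 was low in all 3, at -0.57, -0.66 and -0.57 beside -0.65 in R4168. C09 201 to 700 was at 2.83 in R4168 and at -0.63, 1.75 and -1.88 in R5044, R5159 and R5161.

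Most of the genes in which R4168 differed lay outside the segments. The segments held 3.26% of the tested chromosome genes. They held 12.6% of the genes higher than both sisters (243 of 1923 on chromosomes) and 18.2% of the genes lower than both (575 of 3158). Outside them 51631 genes were tested, scaffolds included. Of these 6438 were higher and 5511 lower than the sister mean (23.1% called), and 1685 were higher and 2591 lower than both sisters (8.28%). Windows shifted on the sister mean but not against both sisters count as outside here. All windows shifted on the sister mean held 6.34% of the tested chromosome genes. They held 16.6% of the genes higher than the sister mean and 15.4% of the genes lower. The C subgenome had 14.0% of its tested genes higher and 11.1% lower than the sister mean, and the A subgenome 12.1% higher and 12.2% lower. Chromosome A09 had 488 genes lower than both sisters of 4056 tested (12.03%), of which 156 lay outside the segments. As a share of all chromosome counts A09 took 6.45% ± 0.020 in R4168, 7.44% ± 0.062 in R4210 and 6.66% ± 0.041 in R4817 (SD, n = 3 each, two-sided exact permutation p of 0.0238, adjusted p of 0.0905 over 19 chromosomes). Of the 19 chromosome shares, 0 passed an adjusted p of 0.05 in these permutation tests and 6 had an unadjusted p under 0.05. With 3 against 6 libraries an adjusted p of 0.05 could be reached only if many chromosomes had the smallest p together, so the count of 0 says little.

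**Figure D5:**
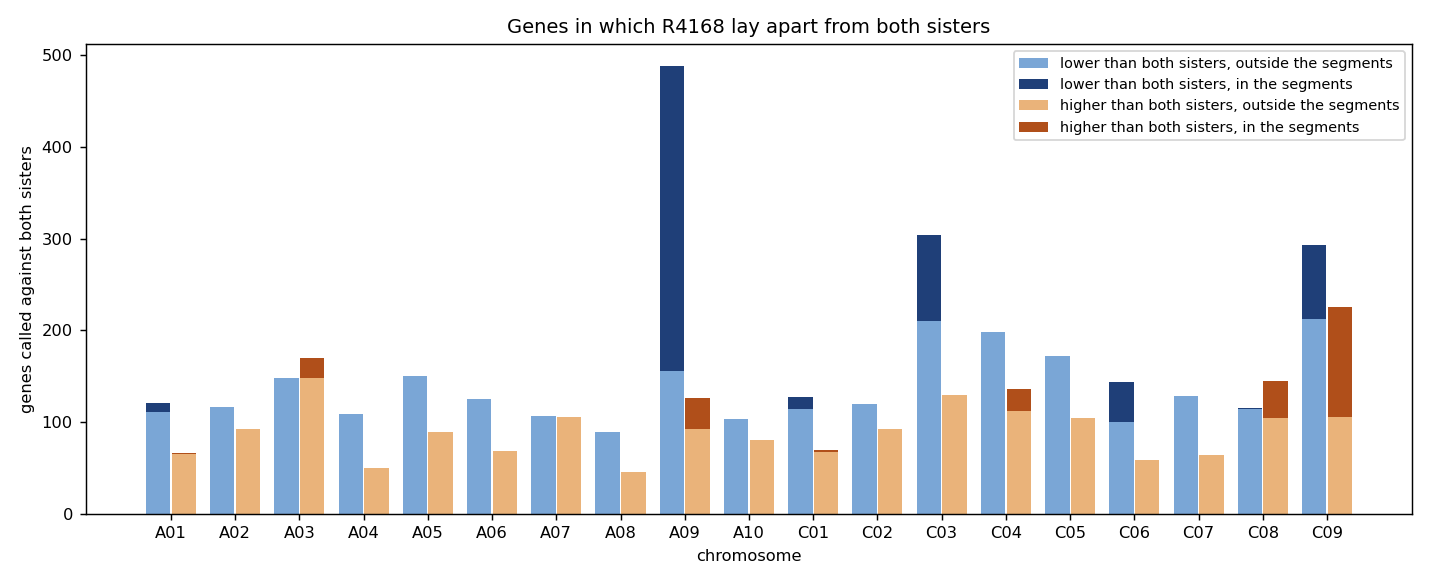
Number of genes in which R4168 was lower (blue) or higher (orange) than both sisters on each chromosome, with the darker part of a bar for genes inside the segments. A09 has 488 low genes, the most of any chromosome, and 156 of them lie outside the segments.

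Genes outside the segments were still grouped to some extent. Of the calls in which R4168 lay apart from both sisters, 24.2% had the next tested gene on the chromosome called in the same direction, and outside the segments 14.8%, where 3.29% of the genes were called higher and 5.05% lower. For calls against the sister mean the share was 28.8%, and 23.8% outside the segments, where 12.6% of genes were called higher and 10.7% lower. Windows shifted on the sister mean only again count as outside the segments. Neighbouring gene models can share reads, so these shares are a description.

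Among genes outside the segments that were lower than both sisters, 1261 of 2591 (48.7%) had all 3 haplotype 1 accessions nearer to R4168 than to the sisters, 610 (23.5%) had all 3 nearer to the sisters, and 720 (27.8%) were mixed. Inside the segments the split was 64, 356 and 155 of 575. Of the genes higher than both sisters, 594 of 1928 had all 3 haplotype 1 accessions nearer to R4168, 701 nearer to the sisters, and 633 were mixed. Outside the segments these high genes split into 570, 631 and 484 of 1685, and inside into 24, 70 and 149 of 243. The genes were chosen because R4168 lay apart from both sisters, and the split over all tested genes was not computed. The shares are thus a description and do not measure likeness of R4168 to haplotype 1.

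The sharpest differences were genes silent in an accession. A gene was taken as silent in R4168 when it had at most 3 counts over the R4168 libraries and at least 1 CPM in all 6 sister libraries. There were 356 such genes among the 53356 tested, 255 of them with 0 counts. They had a median level of 7.09 CPM in the sisters and reached 429 CPM. The A subgenome held 207, the C subgenome 148 and a scaffold 1. The segments, with 3.26% of the tested chromosome genes, held 212 of them. A09 alone, with 4056 tested genes, held 165, of which 156 were in its segments. C09 had 58 among 3365 tested genes, C03 had 23 among 4363 and C06 had 20 among 2458. By the same rule 304 genes were silent in R4210 and 174 in R4817. In haplotype 1, 177 of the 356 were expressed in all 3 accessions, 129 in 1 or 2 and 50 in none.

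Genes expressed only in R4168 were fewer and weaker. At least 1 CPM in each R4168 library and at most 3 counts over the 6 sister libraries was found for 71 of the 53356 tested genes. By the same rule there were 78 for R4210 and 264 for R4817. The genes of R4168 had a median level of 2.98 CPM and the highest 39.3 CPM. They were spread, with 26 on the A and 45 on the C subgenome. The segments, with 3.26% of the tested chromosome genes, held 9 of them. C04 and C09, with 3131 and 3365 tested genes, held 11 each. In haplotype 1, 5 of them were expressed in all 3 accessions, 23 in 1 or 2 and 43 in none. Without libraries 1 and 2 of R4817 the counts were 428 silent genes and 78 genes expressed only in R4168.

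The higher pair of named genes was of this kind. BnaC04T0228600ZS, number 2286 of C04, had 40.1, 43.0 and 34.8 CPM in the R4168 libraries, or 3432 counts, against 0 counts in all 6 sister libraries. It was at least 1938-fold higher in R4168, with a floor of 3 counts over the sister libraries (edgeR's quasi-likelihood test, adjusted p = 2.06e-06). It was expressed in R5044 and R5161, at 36.1 ± 2.1 and 41.02 ± 4.2 CPM (SD, n = 3 each), and had 0 counts in R5159. BnaC09T0268500ZS, number 2685 of C09, had 31.3, 29.3 and 29.8 CPM in the R4168 libraries, or 2661 counts, against 0 counts in all sister libraries. The bound was at least 1503-fold higher in R4168 (edgeR's test, adjusted p = 1.77e-06). It had 0 counts in R5044 and R5159 and averaged 0.011 CPM in R5161, so among the 6 accessions its level was at or near 0 in all but R4168. Neither gene lay in a segment.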

How the data were processed

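Poly(A)-selected RNA of shoot apices from 6 accessions, with 3 libraries each, was sequenced. The authors deposited whole-number counts for each gene model, without normalization. The submitters' processing notes name HISAT2 2.2.1 and featureCounts. Build, annotation, strandedness and any rule for multiply aligned reads were not given in the sources used here. Of the identifiers, 0 matched the RefSeq table of the Da-Ae assembly (123214 entries), so LFY copies and gene lists were not analysed here and no sequences are shown. The table follows the gene number on all 19 chromosomes, so positions are gene numbers, not base pairs. No columns were identical and each library was kept as 1 sample.

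The 9 haplotype 2 libraries were fitted in R 4.3.3 with edgeR 4.0.16 (filterByExpr by accession, TMM, 1 coefficient per accession). R4168 was contrasted with the mean of R4210 and R4817 and with each sister, with Benjamini-Hochberg adjustment over 53356 genes and calls at an adjusted p under 0.05. Depth was 21960992 to 32241484 counts, and the floor of 3 counts covers counting error only. Counts were also summed over fixed windows of 100 gene numbers and fitted the same way. CPM is counts per 1000000 of a library's total. Window medians were centred by subtracting the median over tested chromosome genes, 0.02 for the sister mean. Single values per library were compared by two-sided exact permutation tests of 3 against 6 libraries, with 84 splits. Numbers were computed with Python 3.11.15 (numpy 2.4.6, pandas 2.3.3, scipy 1.17.1). The scripts were tested on simulated data.

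Named genes were the 2 highest and 2 lowest fitted fold changes among 2734 genes apart from both sisters with at least 10 CPM on the higher side. The members, segments, spans and rules were chosen with earlier results of these data known. Replicate numbers were not used to pair libraries in the main fit. The correlation of deviations between libraries of the same number ranged from -0.0023 to 0.127. Between libraries of other numbers it ranged from -0.1335 to 0.0829. Whether libraries of the same number share an effect was not tested. Alternatives were other normalizations, filters, tests, fold limits, window sizes, thresholds, each sister alone, accession sums, all 18 libraries, the replicate number as a block, and leaving out libraries.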

Additional observations from a re-analysis of the deposited data

Results flagged for a closer look

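R4168 lay above 1 sister and below the other in 247 of the 53356 tested genes. In these, both differences and the difference between the sisters were called by edgeR's quasi-likelihood test. R4168 was above R4210 and below R4817 in 160 of them and the reverse in 87. The same held for 19 of 980 windows of 100 gene numbers. In C09 701 to 800 the summed counts of R4168 were 3.15 above R4210 and -1.47 from R4817 on the log2 scale, and in the second window of C09 they were 1.20 above R4210 and -1.44 from R4817. In C01 4901 to 5000 the values were 1.56 and -0.83, and in A10 3001 to 3100 they were 1.07 and -1.001. In A05 4401 to 4500 R4168 was -0.69 from R4210 and 0.32 above R4817. The other windows differed by less than 0.5 from at least 1 sister.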

How the results depend on the processing

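No segment changed direction under any of 18 alternatives of the gene fit. The alternatives reuse the counts that chose the segments, so a change of direction was unlikely from the start. The median moved by at least the SD between R4168 library medians in 16 of 18 alternatives for A09 301 to 800, where that SD was 0.008. It did so in 16 for C09 801 to 1000, in 14 for C03 201 to 400 and in 1 for C08 5201 to 5400. The median of A09 301 to 800 ranged from -9.00 to -6.06, that of A09 6501 to 6700 from -5.01 to -2.99 and that of C09 201 to 700 from 1.98 to 3.66. The count of genes called against the sister mean was 15701 with DESeq2 1.42.0, 13722 with limma-voom and 8364 with a fold of at least 2. It was between 8922 and 15151 when 1 library was left out. Accession sums, with 1 sum against 2, were too few for a count to be read. Genes apart from both sisters numbered 3376 without library 3 of R4168 and at most 6065 without any single library. Windows called numbered 61 with a fold of at least 1.5, 759 of 1948 with windows of 50 gene numbers, 195 of 494 with windows of 200, and 275 to 431 without a library. Without the segments, 11949 genes, 4276 genes apart from both and 353 windows were called. Leaving out the segments, or libraries 1 and 2 of R4817, was chosen after seeing the data. With the replicate number as a block, 12462 genes, 4875 genes apart from both and 399 windows were called. The difference in A subgenome share was 0.0338 percentage points against R4817 alone, opposite in sign to the main value of -0.76, and -0.975 to -0.548 without a library. The difference in genes with at least 10 counts was -48 against R4210 alone, -1089 at 0.5 CPM, and -435 to 610.5 without a library, around a main value of 28. Genes expressed only in R4168 numbered 45 at 2 CPM, 39 at a ceiling of 0 counts and 72 to 83 without a library, and silent genes 358 to 411. The named genes passed in the same direction under 17 of 18 alternatives. They were chosen for the most extreme fitted folds in these same counts, so passing was close to fixed in advance. With accession sums, the remaining alternative, the log2 fold changes were 14.6 for BnaC04T0228600ZS and 14.2 for BnaC09T0268500ZS. They were -16.8 for BnaA09T0041800ZS and -16.4 for BnaA09T0049400ZS, and 1 sum against 2 is too few to test them. The cause of these changes was not tested. Depth limits weak genes, since a count of 0 over the libraries of a group allows up to 3 counts.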
